A study of Homo sapiens with 15 samples.

Results

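The neuronal cytoskeleton and neurite growth genes described here are DCX, MAPT, MAP1B, MAP2, STMN2, STMN4, TUBB3, NEFL, NEFM and GAP43. Every probe set whose single gene symbol was one of these 10 was taken, which gave 27 of the array's 54675 probe sets, and 10 of the 19775 genes that had a probe set of their own. IMR32 is a human neuroblastoma cell line, derived from a childhood tumour of the sympathetic nervous system. Its RNA was measured at 0, 8, 24, 48 and 72 h after doxycycline, on 3 arrays per time and 15 in all. The labels state no unit for these times. Hours are what is known of the study.

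At every time, 0 h included, the cells were of 1 clone that carried a tetracycline repressor expressed from the CMV promoter and a hairpin against CDK2, and that had been selected with Blasticidin-S and Zeocine. CDK2 is a cell cycle kinase active around the entry into DNA replication. Doxycycline, which releases the hairpin, was the only treatment. Each later time was compared with the cells at 0 h and with the time before it. No cells kept without doxycycline, and none given doxycycline without the hairpin, were among the samples, so time in culture, doxycycline and CDK2 knockdown cannot be told apart. The labels do not say whether the 3 arrays of a time came from separate cultures, so p-values measure only the spread between arrays, which may be technical.

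Microtubules are hollow polymers of alpha and beta tubulin that fill axons and dendrites. Doublecortin, tau, MAP1B and MAP2 bind and stabilise them, whereas stathmins bind free tubulin and favour disassembly. Neurofilaments, built from light and medium chains among others, set the calibre of axons, and GAP43 is a membrane protein of the growth cone, the motile tip of a growing neurite. Sympathetic neuroblasts, and the neuroblastoma cells that resemble them, express many of these genes, several of which are used as markers of neuronal differentiation.

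The targeted gene was lower at all 4 later times. CDK2 averaged 94.5 ± 5.56, 80.4 ± 7.72, 48.6 ± 7.36 and 30.1 ± 9.90 at 8, 24, 48 and 72 h, against 231.7 ± 16.3 at 0 h (signal intensity, mean ± SD, n = 3). The 15 arrays had equal trimmed means, and their median probe set signal lay between 15.1 and 20.5. Of the noradrenergic neuroblastoma markers 8 of the 10 listed passed the filter on dim probe sets. Marker sums here take every listed gene on the array, without that filter. For the 9 noradrenergic markers on the array the sum was 7999 to 8514 at 72 h, against 6208 to 6556 at 0 h. Of these, ISL1 averaged 1151 at 72 h and 335.5 at 0 h, and GATA3 3755 at 72 h and 3232 at 0 h. Both were called higher at 72 h, as were HAND2, GATA2, DBH and CHGB. PHOX2A and CHGA were not called at 72 h. The defining enzyme TH was near 0, between 0.5 and 9.5 on all arrays. Summed fibroblast markers read 1285 to 1497 at 72 h, against 991.3 to 1307 at 0 h, of which LUM averaged 346.3 at 72 h and 13.7 at 0 h. Without LUM the other 5 summed to 956.3 to 1102 at 72 h, against 981.3 to 1293 at 0 h, with PDGFRA called lower at 72 h and COL1A1 not called. Summed Schwann and mesenchymal markers read 1706 to 1813 at 72 h, against 1944 to 2311 at 0 h, but these markers did not move together. SNAI2 averaged 246.5 at 72 h and 616.3 at 0 h, and was called lower at 72 h. FN1 averaged 247.9 at 72 h and 135.7 at 0 h, and was called higher. TWIST1 was not called, and the other 4 averaged at or below the median probe set over the 15 arrays. Over the 15 arrays together, all 5 astrocyte and oligodendrocyte markers and all 4 immune markers on the array averaged at or below the median probe set. Of these, MBP averaged 20.9 at 72 h, against 9.4 at 0 h. Whether these markers bear on the results below was not tested, and in RNA of whole cultures fewer cells of a type and less RNA per cell cannot be told apart.

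Of the 10 genes, 8 had at least 1 probe set past the filter, a mean signal of about 16.6, and STMN2 and STMN4 had none. For each of the 8, the brightest probe set on average was used. None of these 8 probe sets read below 42.2 on any array, so none entered through the late arrays alone. At 72 h, 7 of the 8 were higher than at 0 h and none was lower, by limma with Benjamini-Hochberg adjustment over all 11774 genes tested. At that time 32.8% of all genes were called higher and 22.7% lower. The members were chosen with earlier results of these data known, so the shares of all genes given here and below are no test of the members as a set. All 3 arrays lay above all 3 at 0 h for 2 of the 8 at 8 h (DCX and MAP1B), 3 at 24 h (DCX, MAPT and MAP2), 6 at 48 h and 7 at 72 h, against 10.3%, 20.5%, 34.1% and 36.3% of all genes. These counts rest on 1 probe set per gene. At 8 h the second DCX probe set and MAP1B's 214577_at overlapped 0 h. At 24 h the second DCX probe set lay above 0 h. The other MAPT probe sets past the filter and the second of MAP2 overlapped it. With each array centred on its median, 6 of the 8 genes were called higher and none lower at 72 h, where 23.2% of all genes were called higher and 27.6% lower. The median change of the 8 was 0.73 on the log2 scale, against 0.10 for all genes. DCX changed most, 7.62-fold higher at 72 h, followed by MAPT at 2.88-fold and NEFL at 2.45-fold. TUBB3 did not pass the test at 72 h. Log2 changes and folds here are of the signal plus 16, which understates the change of dim probe sets.

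Most calls came at 48 h and 72 h. At 8 h none of the 8 genes was called, whereas 0.0934% of all genes were called higher and 0.357% lower. In that comparison 11 of the 11774 genes were higher and 42 lower, CDK2 among the lower ones. At 24 h only DCX was called higher and none lower, against 7.74% higher and 5.72% lower of all genes. At 48 h 6 were called higher (DCX, MAPT, MAP1B, MAP2, NEFL and GAP43) and TUBB3 lower, against 26.3% and 17.7% of all genes. Over 8, 24, 48 and 72 h the 8 genes had median changes of 0.05, 0.20, 0.50 and 0.73, and all genes had 0.02, 0.05, 0.08 and 0.10. Over the whole time course a moderated F test called 7 of the 8, with TUBB3 not called (adjusted p = 0.089), where 57% of all genes were called.

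**Figure D1:**
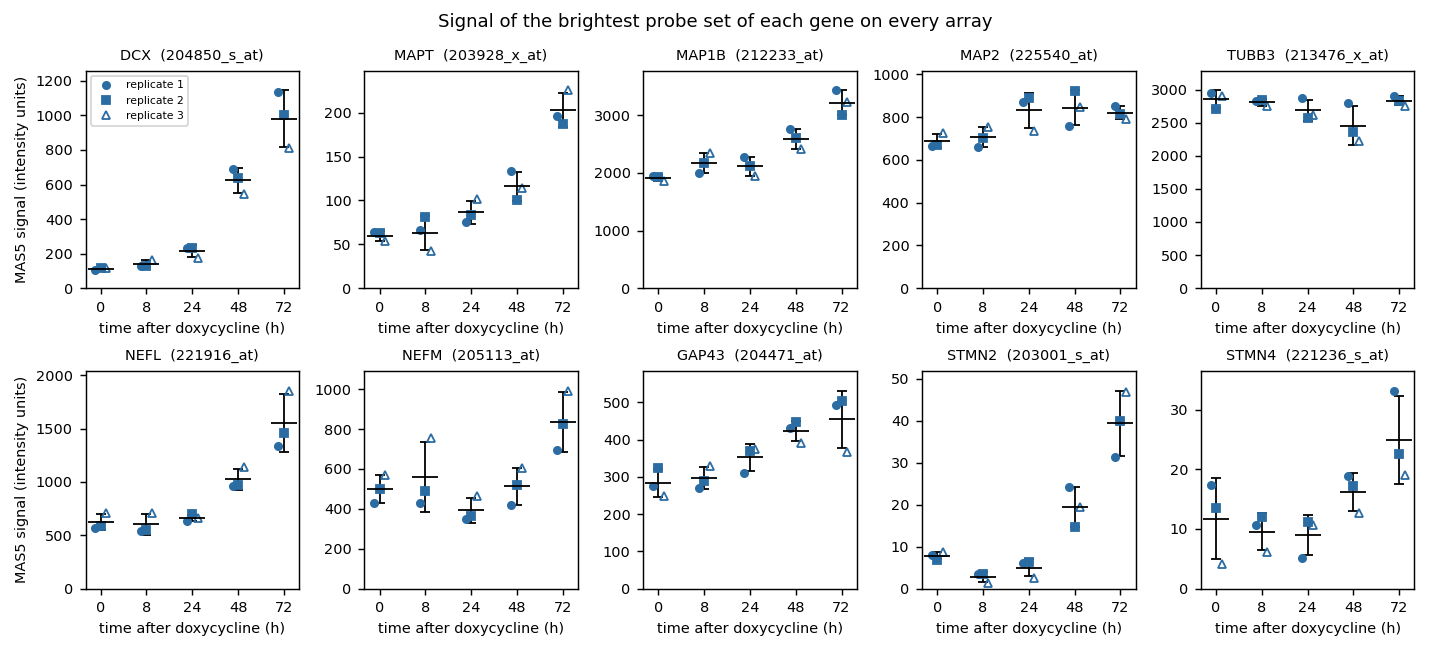
Signal intensity (linear axes, each with its own scale) of the members of the brightest probe set of each of the 10 genes at 0, 8, 24, 48 and 72 h after doxycycline (evenly spaced), with 1 point per array, its shape giving the replicate, and bars for the mean ± SD of 3 arrays. All 3 arrays of DCX, MAPT, MAP1B and NEFL at 72 h lie above every earlier array, and TUBB3 stays within 2222 and 2953.

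DCX encodes doublecortin, a microtubule-binding protein of migrating and newly born neurons. Its brighter probe set, 204850_s_at, read 106.9, 114.7 and 119.6 at 0 h, 130.3, 129.7 and 163.6 at 8 h, 233.0, 232.9 and 173.8 at 24 h, 687.6, 637.7 and 547.1 at 48 h, and 1134.1, 1000.2 and 809.4 at 72 h. At each later time all 3 arrays lay above all 3 at 0 h. The log2 change from 0 h was 0.27 at 8 h (adjusted p = 0.54), 0.81 at 24 h (adjusted p = 4.7e-04), 2.30 at 48 h (adjusted p = 5.5e-10) and 2.93 at 72 h (adjusted p = 5.5e-12). The second probe set, 204851_s_at, read 730.7, 562.4 and 444.4 at 72 h, against 81.8, 77.4 and 58.7 at 0 h, a log2 change of 2.73. On both probe sets replicate 3 was the lowest array at 48 h and at 72 h, without reaching the arrays of 24 h.

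Sequence just upstream of the start site is shown for DCX, MAP1B and GAP43, which were higher together at 48 h and 72 h, to show what their promoters look like at the level of bases. MAP2, also called higher at both times, has promoter entries too but is not shown, and its windows held no TATAAA. Each stretch shown is the 250 bases before an annotated start, from RefSeq on GRCh38.p14, written 5′ to 3′ on the gene's own strand. The DCX stretch is chrX:111412193-111412442 on the minus strand, that of MAP1B chr5:72107225-72107474 on the plus strand, and that of GAP43 chr3:115623260-115623509 on the plus strand. Capitals mark a TATAAA box in DCX and MAP1B, and in GAP43 a CCAAT box, which reads ATTGG on the strand shown.
DCX: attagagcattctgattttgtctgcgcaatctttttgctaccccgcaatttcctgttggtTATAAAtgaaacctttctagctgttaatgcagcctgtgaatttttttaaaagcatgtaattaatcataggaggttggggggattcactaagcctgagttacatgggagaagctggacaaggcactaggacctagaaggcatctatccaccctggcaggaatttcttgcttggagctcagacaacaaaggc
MAP1B: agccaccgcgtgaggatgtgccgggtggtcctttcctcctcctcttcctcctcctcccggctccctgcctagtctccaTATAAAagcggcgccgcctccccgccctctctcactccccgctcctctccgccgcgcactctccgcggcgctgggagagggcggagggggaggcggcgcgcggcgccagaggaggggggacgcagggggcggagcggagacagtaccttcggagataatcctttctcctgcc
GAP43: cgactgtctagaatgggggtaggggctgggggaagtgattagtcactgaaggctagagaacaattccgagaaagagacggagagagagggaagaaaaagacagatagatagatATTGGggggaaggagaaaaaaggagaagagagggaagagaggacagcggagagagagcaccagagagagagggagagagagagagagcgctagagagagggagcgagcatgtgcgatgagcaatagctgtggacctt
The MAP1B stretch is dense in G and C, and that of GAP43 holds long runs of alternating G and A. Of the 10 genes, 5 had an entry among RefSeq's promoters, 11 start sites in all, and windows ran 250 bases upstream and 50 downstream. TATAAA, on either strand, was in 3 of the 11 windows and in 11.5% of all 35116 promoters of that length. In DCX it began 190 bases before the start, and in MAP1B 172 bases before one start and 30 before another. CCAAT was in 5 of the 11 windows and in 34.6% of all promoters. It was also found for TUBB3, which was not higher, beginning 79 bases before a start. Some windows of 1 gene overlap, and the CCAAT counted in both overlapping windows of DCX is the same site. The E-box CACGTG and the E2F-type motif TTTNNCGC were in none of the 11, and in 7.26% and 6.89% of all promoters. A match to these letters is a description of the window and not a site of binding.

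MAPT encodes tau, which stabilises axonal microtubules. Its probe set 203928_x_at read 64.1, 62.4 and 53.5 at 0 h, 66.3, 80.8 and 42.2 at 8 h, 75, 83.2 and 101.2 at 24 h, 133.1, 100.6 and 114.7 at 48 h, and 196.7, 187.6 and 225.3 at 72 h. On this probe set the arrays of 24, 48 and 72 h all lay above those of 0 h. The log2 changes of 0.03 at 8 h and 0.43 at 24 h (adjusted p = 0.087) were not called, and those after were 0.79 at 48 h (adjusted p = 5.7e-04) and 1.53 at 72 h (SE 0.16, adjusted p = 2.7e-07). The other 4 MAPT probe sets past the filter changed by 1.01, 1.02, 1.32 and 1.73 at 72 h. At 24 h all 4 overlapped 0 h and were not called. At 48 h 203929_s_at still overlapped 0 h, though it was called higher. Of these, 203930_s_at averaged 11.9 and 225379_at 15.2 at 0 h, below the filter, so both passed it through later arrays. A sixth, 233117_at, stayed below the filter and read 1.3 to 17.5.

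MAP1B, which binds microtubules in growing axons, was bright at every time. Its probe set 212233_at read 1950.5, 1927.3 and 1856.4 at 0 h, 1991.2, 2180.3 and 2350.4 at 8 h, 2281.9, 2124.8 and 1948.5 at 24 h, 2758.3, 2609.9 and 2413.4 at 48 h, and 3430.9, 3009.6 and 3222.9 at 72 h. The log2 change was 0.44 at 48 h (adjusted p = 2.4e-04) and 0.75 at 72 h (SE 0.08, adjusted p = 3.5e-07), a 1.68-fold rise, and it was not called at 8 h or 24 h. All 3 arrays lay above those of 0 h at 8 h, 48 h and 72 h, and at 24 h 1 array fell inside their range. The other MAP1B probe sets changed by 0.80 and 0.71 at 72 h.

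MAP2, which binds microtubules of dendrites and cell bodies, changed little. Its probe set 225540_at read 666.5, 670.3 and 726.0 at 0 h, 661.1, 700.1 and 754.0 at 8 h, 868.9, 886.8 and 736.1 at 24 h, 759.5, 921.5 and 848.9 at 48 h, and 852.0, 814.9 and 791.6 at 72 h. The log2 change was 0.26 at 24 h (adjusted p = 0.052), 0.29 at 48 h (adjusted p = 0.012) and 0.25 at 72 h (adjusted p = 0.021), a 1.19-fold difference at the last time. The second probe set, 210015_s_at, read 132.8, 142.0 and 114.3 at 72 h, against 127.4, 134.7 and 163.0 at 0 h, and was not called (log2 change -0.11, adjusted p = 0.51). The calls on 225540_at were lost when each array was centred on its median, with a log2 change of 0.19 at 48 h (adjusted p = 0.15) and 0.13 at 72 h (adjusted p = 0.28). They were lost too without 48 h replicate 2 (0.22 at 48 h), and without 0 h replicate 1 (0.23), 0 h replicate 2 (0.23) or 72 h replicate 1 (0.22) at 72 h.

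TUBB3 encodes a beta tubulin typical of neurons. Its probe set 213476_x_at read 2953.0, 2705.1 and 2905.8 at 0 h, 2826.4, 2846.8 and 2748.0 at 8 h, 2864.4, 2575.7 and 2610.7 at 24 h, 2792.3, 2354.8 and 2221.8 at 48 h, and 2897.9, 2829.8 and 2758.2 at 72 h. At 72 h the log2 change was -0.01 (SE 0.08, adjusted p = 0.90) and the arrays lay among those of 0 h. At 48 h it fell by 0.22 on the log2 scale (adjusted p = 0.027), with 1 array of 48 h inside the range of 0 h. That call was lost with quantile normalisation, where the change was -0.10, without the filter (adjusted p = 0.052), without eBayes' trend and with only the 2 times fitted (adjusted p = 0.056 in both), and without 0 h replicate 1 (-0.20), 0 h replicate 3 (-0.21), 48 h replicate 2 (-0.19) or 48 h replicate 3 (-0.15). The second probe set, 202154_x_at, changed by -0.28 at 48 h (adjusted p = 0.025, or 0.055 without the filter, no longer called) and by -0.07 at 72 h, not called. In Affymetrix's naming, the suffix of both marks probes that may also match other transcripts, so related tubulins can contribute to these signals. The same suffix is carried by the MAPT probe set 203928_x_at and by NEFL 221801_x_at.

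Both neurofilament genes were higher at 72 h. NEFL, the light chain, read 569.3, 586.1 and 707.0 at 0 h, 543.2, 551.5 and 713.4 at 8 h, 631.9, 694.9 and 658.5 at 24 h, 962.2, 971.6 and 1136.5 at 48 h, and 1338.6, 1461.7 and 1856.3 at 72 h on 221916_at. From 48 h on its arrays stood clear of those of 0 h. The log2 change was 0.71 at 48 h (adjusted p = 1.4e-04) and 1.29 at 72 h (SE 0.12, adjusted p = 7.8e-08). The other NEFL probe sets changed by 1.48 and 1.08 at 72 h. NEFM, the medium chain, read 429.6, 497.7 and 569.3 at 0 h, 430.3, 487.7 and 757.4 at 8 h, 351.3, 361.7 and 465.1 at 24 h, 416.9, 521.2 and 602.5 at 48 h, and 694.1, 824.7 and 992.9 at 72 h on 205113_at. Its arrays overlapped those of 0 h at every time but 72 h. NEFM was called at 72 h alone among the comparisons with 0 h, with a log2 change of 0.72 (SE 0.18, adjusted p = 0.0026). Its changes at 24 h (-0.34, adjusted p = 0.24) and 48 h (0.03, adjusted p = 0.90) were not called. In a limma fit with the replicate as a block, NEFM was called lower at 24 h (adjusted p = 0.013). For both genes replicate 3 was the highest of the 3 arrays at 0, 8, 48 and 72 h, the opposite of its place for DCX at 48 h and 72 h.

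GAP43 was higher at 48 h and 72 h. Its probe set 204471_at read 275.8, 324.2 and 248.8 at 0 h, 271.2, 288.5 and 328.4 at 8 h, 311.4, 370.6 and 375.2 at 24 h, 430.8, 446.3 and 392.3 at 48 h, and 493.6, 504.5 and 366.8 at 72 h. All 3 arrays at 48 h and at 72 h lay above those of 0 h, and replicate 3 at 72 h fell below all 3 of 48 h. The log2 change was 0.56 at 48 h (adjusted p = 0.0011) and 0.65 at 72 h (SE 0.12, adjusted p = 2.0e-04). Of the other GAP43 probe sets, 216963_s_at changed by 0.68 at 72 h and was called, and the dim 216967_at changed by 0.16 (adjusted p = 0.44).

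STMN2 and STMN4, neuronal stathmins, were too dim for the filter. STMN2 read 8.0, 6.9 and 8.7 at 0 h, 3.5, 3.5 and 1.3 at 8 h, 6.0, 6.3 and 2.6 at 24 h, 24.3, 14.7 and 19.4 at 48 h, and 31.3, 39.9 and 46.9 at 72 h on 203001_s_at. Its second probe set, 203000_at, read 25.6, 33.2 and 30.4 at 72 h, against 1.4, 1.4 and 0.5 at 0 h. On both, all 3 arrays at 48 h and 72 h lay above all 3 at 0 h. In a fit of all genes without the filter, STMN2 was called higher at 48 h (log2 change 0.56, adjusted p = 0.0082) and 72 h (1.20, adjusted p = 6.0e-06), where 14.6% and 19.6% of 19775 genes were called higher. At such low signal the added constant of 16 sets the size of the change, which was 2.17 with a constant of 1 and 0.52 with 64. STMN4 on 221236_s_at read 33.2, 22.6 and 19.0 at 72 h, against 17.4, 13.5 and 4.2 at 0 h. Its log2 change of 0.58 at 72 h (adjusted p = 0.029, without the filter) was no longer called without 0 h replicate 3 (0.37, adjusted p = 0.17) or 72 h replicate 1 (0.44, adjusted p = 0.13), nor with quantile normalisation (0.47, adjusted p = 0.059) or centred arrays (0.46, adjusted p = 0.061). Its second probe set was not called (0.24, adjusted p = 0.54).

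**Figure D2:**
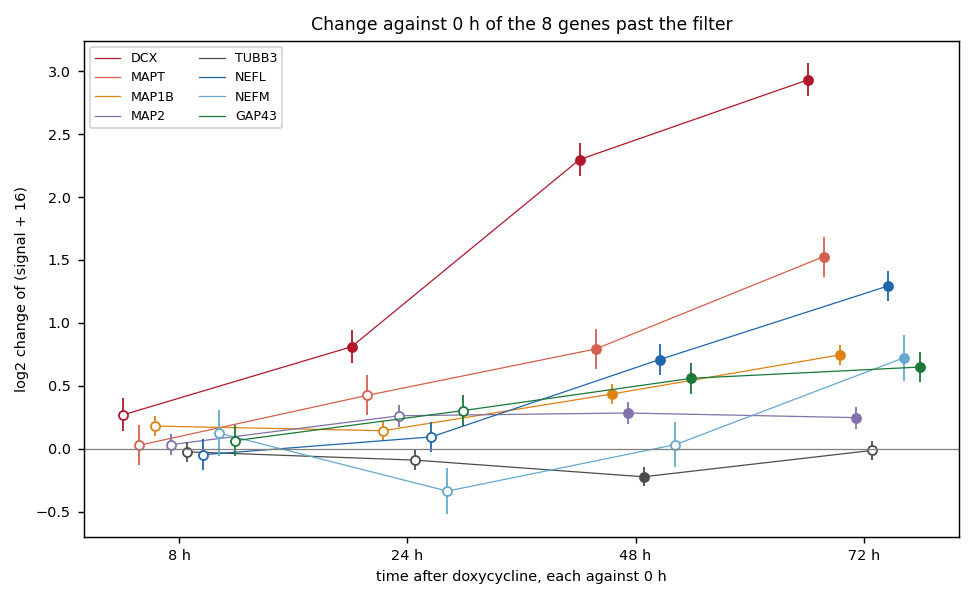
Log2 change from 0 h of the 8 genes past the filter at 8, 24, 48 and 72 h, as the estimate with its standard error from limma on 3 arrays per time. Times are evenly spaced, points are set apart sideways for legibility, and filled points passed the test. DCX reaches 2.93 at 72 h, MAPT 1.53 and NEFL 1.29, and TUBB3 ends at -0.01.

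Set against the time before, the genes called differed between intervals, but no interval was tested against another. Between 8 h and 24 h, DCX alone was called, higher by 0.54 (adjusted p = 0.021), where 2.54% of all genes were called higher. That call was lost without either of replicates 1 and 2 at 8 h or at 24 h. Between 24 h and 48 h, DCX was higher by 1.49 (adjusted p = 3.3e-07), NEFL by 0.61 (adjusted p = 0.0013) and MAP1B by 0.29 (adjusted p = 0.013), where 12.4% of all genes were called higher. Between 48 h and 72 h, 5 genes were called higher, against 4.54% of all genes. These were MAPT by 0.73 (adjusted p = 0.0062), NEFM by 0.69 (adjusted p = 0.021), DCX by 0.63 (adjusted p = 0.0047), NEFL by 0.58 (adjusted p = 0.0048) and MAP1B by 0.31 (adjusted p = 0.017). Without 48 h replicate 2 the count was 3. The labels number the replicates but state no pairing, and a replicate block was fitted because same-numbered arrays of 72 h and 48 h deviated alike. With that block TUBB3 too was called, higher by 0.21 (adjusted p = 0.039, against 0.093 without the block).

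Taking all 21 probe sets past the filter, 17 were called higher at 72 h and none lower, where 27.1% of 27307 probe sets were called higher and 19.3% lower. These include the 2 MAPT probe sets that lay below the filter at 0 h, without which 15 of 19 were higher at 72 h, and 14 higher and 2 lower at 48 h. At 48 h 16 were higher and 2 lower, those 2 both of TUBB3, where 20.8% were called higher and 13.8% lower. At 24 h 2 were higher, both of DCX, against 4.68% higher and 4% lower of all, and at 8 h none was called, against 0.0293% and 0.212%. The 4 not called at 72 h were both TUBB3 probe sets, 210015_s_at of MAP2 and 216967_at of GAP43. Probe sets of 1 gene share its transcripts and are not replicates.

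**Figure D3:**
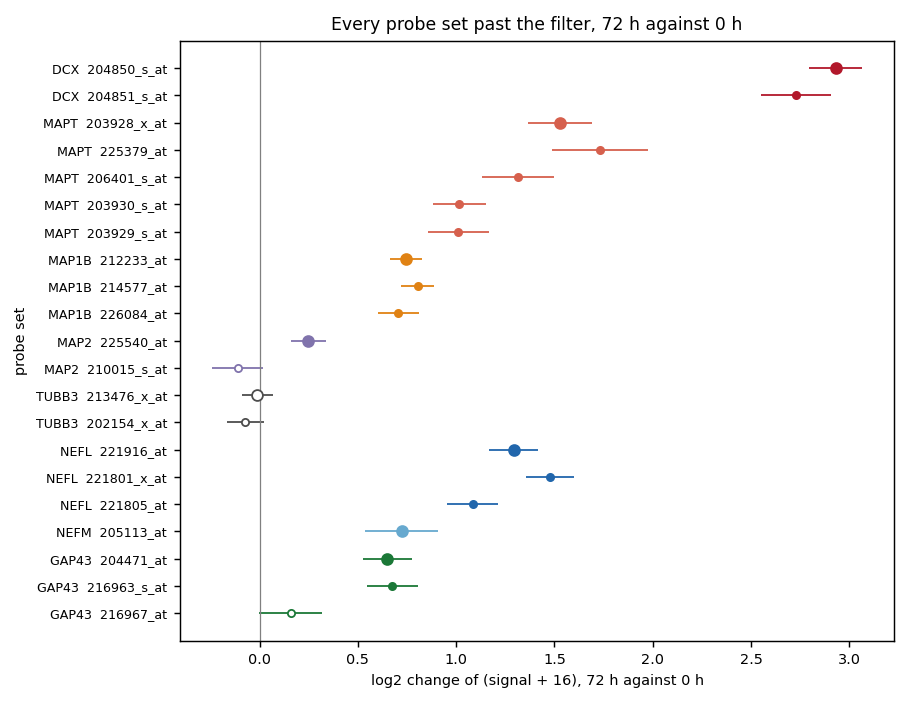
Log2 change at 72 h against 0 h of each member probe set past the filter, grouped by gene, with the standard error from limma on 3 arrays per time. Filled points passed the test, and the large point is the probe set used for the gene. All probe sets of DCX, MAPT, MAP1B and NEFL lie above 0, and those of MAP2, TUBB3 and GAP43 differ among themselves or lie near 0.

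The members' patterns over the 15 arrays were compared by Pearson's r of log2 values, as a description, since the arrays share their times. DCX lay nearest to MAP1B (r = 0.94) and NEFL (r = 0.92). NEFM lay nearest to NEFL (r = 0.75) and had r = 0.51 with DCX. TUBB3 had r between -0.50 and -0.004 with the other 7. Among all 11774 genes, the patterns most like that of DCX were those of RUNDC3A (r = 0.992), GLIDR (r = 0.991) and SOX11 (r = 0.990), and the most like that of NEFL were PELI1, TLE4 and H2BC12 (r = 0.991 to 0.990). For MAPT these were C2CD2, EEF1A2 and SLC30A4, with r of 0.974 at most. For MAP1B they were ERGIC3, GPR173 and IMPDH2, for NEFM PPP4R3A, BHLHE40 and DNAJC2, and for GAP43 PLPP6, GRIA2 and ICA1. MAP2 and TUBB3 had weaker neighbours, CDK17 at r = 0.887 and NPW at r = 0.885.

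Other genes of the neuronal cytoskeleton were taken from 8 lists of 83 genes, 77 of them past the filter. At 72 h 38 were called higher and 20 lower, at 48 h 27 and 20, at 24 h 13 and 5, and at 8 h none. Of all genes 32.8% were higher and 22.7% lower at 72 h, and 26.3% and 17.7% at 48 h. At 24 h the shares were 7.74% and 5.72%, and at 8 h 0.0934% and 0.357%. The counts of each list below stand against these same shares of all genes. These lists, like the members, were chosen with earlier results of these data known. With arrays centred on their medians, which moved the median of all genes at 72 h to -0.01 in place of 0.10, the split was 29 higher and 24 lower at 72 h, where 23.2% of all genes were higher and 27.6% lower, and 19 and 23 at 48 h, where 17.6% and 21.7% were.

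Of 10 tubulins other than TUBB3, 5 were lower and 1 higher at 72 h, and the median change was -0.31. With centred arrays 8 were lower and 1 higher. TUBA4A, an alpha tubulin, averaged 274.4 at 72 h and 500.5 at 0 h (log2 change -0.83), and TUBB4B, a widely expressed beta tubulin, 2004 at 72 h and 3553 at 0 h (-0.82). TUBB2B, a beta tubulin of the developing brain, was called higher, at 1468 at 72 h and 945.8 at 0 h (0.62). The probe sets of TUBB4B and TUBB2B, and of 3 more of the 10, carry the suffix described for TUBB3, so related tubulins can contribute to their signals. Among 6 stathmins and severing enzymes, 4 were lower and 2 higher. STMN1, the stathmin of dividing cells, averaged 1147 at 72 h and 2336 at 0 h (-1.02), KATNAL1, a katanin-like severing enzyme, changed by -0.53 and FIGN, another severing enzyme, by 0.52.

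Of 19 microtubule stabilisers and doublecortin relatives, 12 were higher and 1 lower at 72 h, with a median of 0.39. DCLK1, a kinase with doublecortin domains, averaged 412.3 at 72 h and 198.4 at 0 h (log2 change 0.998). TPPP, which bundles microtubules, averaged 295.6 at 72 h and 154.3 at 0 h (0.84), and MAP6, which protects microtubules from cold, 424.9 at 72 h and 231.4 at 0 h (0.84). With centred arrays 9 of the 19 were higher and 1 lower.

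Of the 4 other intermediate filament genes measured, 1 was higher and 2 lower. PRPH, the filament of peripheral neurons, averaged 1507 at 72 h and 526.7 at 0 h (log2 change 1.49). VIM, found in mesenchymal and immature cells, and NES, found in neural progenitors, changed by -0.38 and -0.31.

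Of 12 growth cone membrane and adhesion proteins, 6 were higher and 3 lower. The related membrane glycoproteins GPM6A and GPM6B moved in opposite directions. GPM6A averaged 268.0 ± 22.9 at 72 h and 17.4 ± 4.14 at 0 h (SD, n = 3), a log2 change of 3.09, and GPM6B averaged 634.9 at 72 h and 3322 at 0 h, a change of -2.36. NFASC, a cell adhesion molecule of axons, changed by 1.49. Of 14 genes of the growth cone actin and membrane skeleton, 11 were higher and 2 lower, or 7 and 3 with centred arrays. Its 3 greatest changes were in the ankyrins ANK2 (1.23) and ANK3 (1.14), which tie membrane proteins to spectrin, and in TMOD2 (1.15), which caps actin filaments in neurons.

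Of 8 kinases and kinase activators that act on microtubule-associated proteins, 5 were higher and 1 lower. CDK5R1, the activator of the neuronal kinase CDK5, changed by 0.79 and GSK3B, which phosphorylates tau, by 0.45, whereas MARK1, a kinase that loosens tau from microtubules, changed by -0.55. Of 4 regulators of neuronal mRNAs none was higher and 2 were lower. REST, which represses neuronal genes, averaged 122.8 at 72 h and 187.2 at 0 h (-0.55, adjusted p = 1.1e-04), and ELAVL2, a neuronal RNA-binding protein, changed by -0.30. The direction of each gene named from these lists, and its call at 72 h, was the same with quantile normalisation and with centred arrays.

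**Figure D4:**
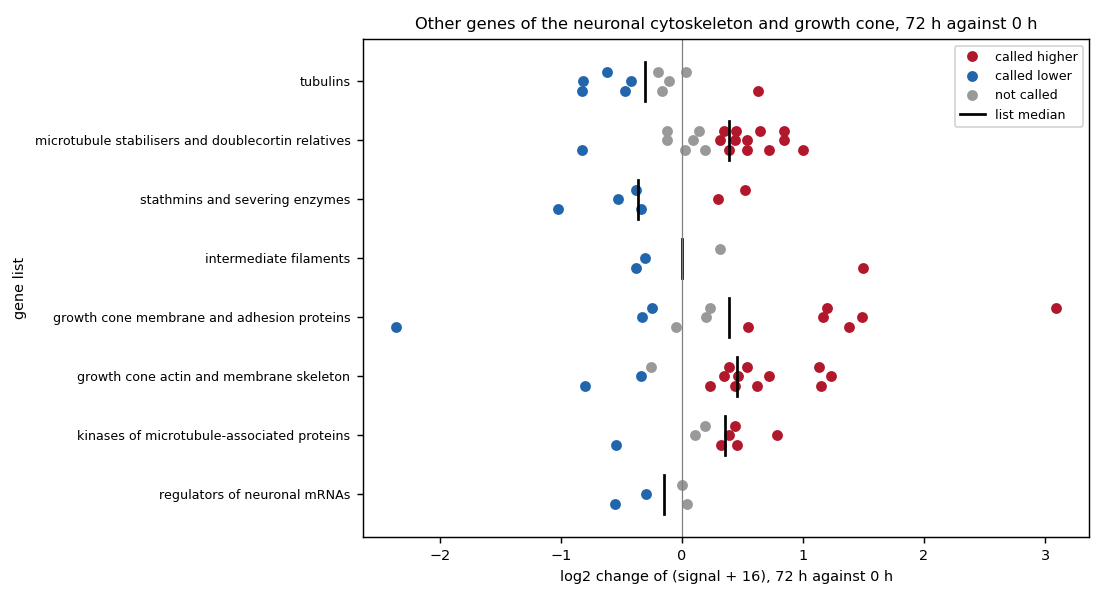
Log2 change at 72 h against 0 h of the genes in the 8 other lists, 1 point per gene past the filter, coloured by call, with a bar at each list's median. Most of the 19 stabilisers and 14 skeleton genes lie above 0, 8 of the 10 other tubulins lie below it, 5 of them called,, and GPM6A and GPM6B mark the extremes of the adhesion list at 3.09 and -2.36.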

How the data were processed

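Per the labels, total RNA was labelled by Affymetrix's one-cycle protocol. The submitters' processing notes name MAS5 and GCOS, without versions. Deposited values are signal intensity per probe set on a linear scale. With 2% trimmed at either end, every one of the 15 arrays had a mean of 100.01, and no further scaling was applied. Genes were named from GEO's platform annotation: 41091 probe sets named 1 gene, 1801 several, 11721 none and 62 were controls.

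Values were taken as log2(signal + 16). Probe sets with a mean log2 value no lower than the median of the non-control ones were kept (27307), and the brightest probe set naming 1 gene stood for the gene (11774 genes). limma 3.58.1 (lmFit, eBayes with trend) was fitted to all 5 times jointly in R 4.3.3, 3 arrays per group, once over genes and once over probe sets, with Benjamini-Hochberg adjusted p-values over all of them and a threshold of 0.05. The number of arrays limits the precision, and an exact permutation test of 3 against 3 cannot go below 0.1. Figures were drawn in Python 3.11.15. The fit was tested on simulated data.

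The members, the gene lists and the marker lists were chosen with earlier results of these data known. Named genes were all members with all their probe sets, CDK2, up to 3 genes per list with the greatest change at 72 h among those called, and per member the 3 genes of highest Pearson correlation. LUM, PDGFRA, COL1A1, TH, SNAI2, FN1, TWIST1 and MBP were named after their values were seen. So were the noradrenergic markers ISL1, GATA3, HAND2, GATA2, DBH, CHGB, PHOX2A and CHGA. Some listed markers are not analysed here.

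Same-numbered arrays were compared by the correlation of their deviations from the group means. All 3 pairs exceeded 0.1 for 48 h against 0 h (0.122 to 0.211) and for 72 h against 48 h (0.119 to 0.353), so a replicate block was read for these. For 72 h against 0 h they did not (0.0564 to 0.23). The labels state no pairing. Alternatives were the constant added before the log, quantile normalisation, median centring, no filter or a stricter one, the mean over probe sets, no trend, array weights, fits of only 2 times, a replicate block, an added fold threshold and leaving out each array.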

Additional observations from a re-analysis of the deposited data

How the results depend on the processing

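The counts of genes called at 48 h and 72 h against 0 h stayed within 1.5 times of 7 under every alternative run except an added absolute log2 change of 1, which left 1 and 3. With that threshold probe sets numbered 0, 3 and 10 at 24, 48 and 72 h, and genes 0 at 24 h, 0 between 8 h and 24 h, 1 between 24 h and 48 h and 0 between 48 h and 72 h. The count at 24 h against 0 h (1) was 3 with quantile normalisation or only the 2 times fitted, 2 with the brightest 25% of probe sets or array weights, and 1 to 3 without single arrays, where 0 h replicate 3 or 24 h replicates 1 or 2 left 1 probe set (1 to 3 in all). The 3 genes came without 8 h replicate 3, and 2 without 24 h replicate 3, 48 h replicate 1 or 72 h replicate 3, in each case with MAP2 added. The count at 24 h against 8 h was 0 with quantile normalisation or only the 2 times, 2 with array weights, and 0 to 1 without single arrays. That at 48 h against 24 h was 6 with array weights, and that at 72 h against 48 h was 3 to 5 without single arrays.

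With the replicate block, 24 h against 0 h gave 3 genes, NEFM lower (-0.34, adjusted p = 0.013) and MAP2 higher besides DCX. The comparison of 24 h with 8 h gave 2, NEFM lower (-0.46, adjusted p = 0.0029) besides DCX. That of 48 h with 24 h gave 4, with NEFM higher (0.37, adjusted p = 0.0038) added. In these comparisons not all 3 pairs exceeded 0.1 (0.0913 to 0.145, -0.00826 to 0.135 and 0.0667 to 0.17). NEFM itself rose from replicate 1 to replicate 3 at every time. The standard error of its change at 24 h against 0 h was 0.085 with the block and 0.18 without. Whether the block or the plain fit is the better one for NEFM was not tested. The block changed no call of a member gene at 48 h or 72 h against 0 h.

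Arrays of 8 h and 72 h replicate 3 had the lowest weights (0.405 and 0.356), so 2 alternatives chosen after seeing the data were added, besides the count without probe sets below the filter at 0 h. With replicates 1 and 2 alone at all times, counts were 2 at 24 h against 0 h, 2 at 24 h against 8 h and 6 at 48 h against 24 h. With those 2 arrays left out, they were 4 and 5 for 24 h against 0 h and 48 h against 24 h, and 5 probe sets at 24 h.

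Direction turned only for changes that were not called. At 8 h, leaving out single arrays gave -0.13 to 0.23 for MAPT, -0.014 to 0.079 for MAP2, -0.061 to 0.0016 for TUBB3, -0.17 to 0.049 for NEFL, -0.11 to 0.29 for NEFM and -0.018 to 0.16 for GAP43. The mean over probe sets gave -0.14 for MAP2 and 0.025 for NEFL, array weights -0.029 for GAP43, replicates 1 and 2 alone 0.00518 for TUBB3, -0.013 for NEFM and -0.091 for GAP43, and 8 h and 72 h without replicate 3 gave -0.014 for MAP2, -0.11 for NEFM and -0.00784 for GAP43. NEFM at 48 h was -0.0639 with centred arrays and -0.086 to 0.17 without single arrays. TUBB3 at 72 h was 0.12 with quantile normalisation, 0.012 with array weights, 0.019 with replicates 1 and 2, 0.0056 with 8 h and 72 h without replicate 3, and -0.0505 to 0.012 without single arrays. Its second probe set was 0.091 with quantile normalisation. MAP2's 210015_s_at at 48 h was 0.027 with array weights, 0.0799 with replicates 1 and 2 and -0.101 to 0.059 without single arrays, and 0.061 at 72 h with replicates 1 and 2. GAP43's 216967_at at 48 h was -0.018 to 0.26 without single arrays. The cause of these differences was not tested.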
